A study of Mus musculus with 16 samples.

Results

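The 10 genes described here encode the antigen presentation machinery of the major histocompatibility complex (MHC) and were taken as a named list, out of 51912 gene identifiers in the table of counts. Each symbol was matched to its Ensembl identifier with a mouse GENCODE annotation, and all 10 were found. The list holds 3 class I genes (*H2-K1*, *H2-D1* and *B2m*), 4 class II genes (*H2-Aa*, *H2-Ab1*, *H2-Eb1* and the invariant chain gene *Cd74*), and 3 genes of class II loading and transcription (*H2-DMa*, *H2-DMb1* and *Ciita*). Of these, 9 had enough counts for the test across genes and *H2-DMb1* did not.

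RNA was sequenced from whole ventricles of neonatal mice on a C57BL/6 background, 4 libraries in each of 4 groups. Wild type mice and whole-body *Lrrc10*-/- knockout mice had a sham surgery or a myocardial infarction (MI) at postnatal day 1, and hearts were collected 7 days later, giving the groups WT SH (wild type, sham), WT MI, KO SH (knockout, sham) and KO MI. *Lrrc10* encodes a leucine-rich repeat protein of cardiomyocytes, but the deletion itself was carried by every cell type of the knockout mice. The comparisons ask how the presentation genes differ between infarcted and sham-operated ventricles, and whether they differ between knockout and wild type. The ventricles were taken above and below the ligation, so that each library mixes infarcted and remote muscle with every other cell of the ventricle.

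MHC class I molecules show peptides of the cell's own proteins to CD8 T cells. Nearly all nucleated cells make them, each a polymorphic heavy chain paired with β2-microglobulin. MHC class II molecules show peptides of engulfed proteins to CD4 T cells and are made mainly by dendritic cells, B cells and macrophages. Class II chains are escorted by the invariant chain, exchange its remnant for peptide with the help of the DM proteins, and are transcribed under the coactivator CIITA.

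The 16 libraries held between 33783874 and 57470159 counts (median 45092798). Levels are given as CPM, counts scaled to 1000000 per library, and the floor of 3 counts lay at 0.0577 to 0.0858 CPM. *Lrrc10* had 0 counts in all 8 knockout libraries and between 1075 and 1850 in the wild type libraries. The study's methods describe the sequenced groups as matched for sex, but all 4 WT SH libraries carried transcripts of Y-linked genes and a low level of *Xist*. Each of the other groups had 2 libraries of this kind and 2 with high *Xist*. Comparisons with WT SH were therefore also fitted with sex as a term, a choice made after seeing the data.

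On chromosome 17 of the GRCm39 build lie 7 of the 10 genes, inside the MHC. *H2-K1* (chr17:34214987-34219321, minus strand) is at one end and *H2-D1* (chr17:35481691-35486475, plus strand) at the other. Between them lie *H2-DMa* (chr17:34338515-34358958), *H2-DMb1* (chr17:34372046-34379204), *H2-Ab1* (chr17:34476663-34488393) and *H2-Eb1* (chr17:34504236-34535648), all on the plus strand, and *H2-Aa* (chr17:34493404-34506798) on the minus strand. The annotated models of *H2-Aa* and *H2-Eb1* overlap by 2563 bases on opposite strands, and *B2m* (chr2:121977957-121983594, plus strand) lies inside the model of *Patl2* on the other strand. The study's methods describe strand-specific reads, but whether the counting used the strand is not given in the sources used here.

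The 120 bases before the start of transcription are printed for a class I gene, *H2-K1*, and for the 3 class II chain genes, since these 2 classes are compared throughout. The sequences run 5′ to 3′ on the strand of the gene and were read from the GRCm39 genome at the start of the GENCODE canonical transcript (*H2-K1* chr17:34219322-34219441 minus, *H2-Aa* chr17:34506798-34506917 minus, *H2-Ab1* chr17:34482063-34482182 plus, *H2-Eb1* chr17:34524693-34524812 plus). Capitals mark exact matches, on either strand, to CCAAT, the core of the Y box bound by NF-Y, to TGACG, the core of a cyclic AMP response element, or to GGGATTCC, an NF-κB type sequence. In *H2-Aa* the matches to TGACG on both strands overlap, so that a single run of capitals covers both.
H2-K1: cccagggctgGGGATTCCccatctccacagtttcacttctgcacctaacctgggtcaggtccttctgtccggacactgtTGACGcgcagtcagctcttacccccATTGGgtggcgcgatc
H2-Aa: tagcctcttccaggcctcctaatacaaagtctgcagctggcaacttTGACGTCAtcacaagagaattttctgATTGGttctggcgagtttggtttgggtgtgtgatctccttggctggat
H2-Ab1: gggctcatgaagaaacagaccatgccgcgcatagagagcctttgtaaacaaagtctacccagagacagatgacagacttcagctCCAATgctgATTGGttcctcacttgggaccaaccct
H2-Eb1: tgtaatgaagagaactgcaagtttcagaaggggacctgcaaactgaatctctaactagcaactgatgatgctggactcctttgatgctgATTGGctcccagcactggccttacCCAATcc

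Over a window from 250 bases before the start to 50 bases from it, CCAAT matched in 5 of the 9 members read (*H2-K1*, *H2-Aa*, *H2-Ab1*, *H2-Eb1* and *H2-DMa*), against 39.9% of 21770 protein-coding promoters. In the 3 class II chain genes every CCAAT match lay within the 50 bases before the start. TGACG matched in *H2-K1* and *H2-Aa*, against 22.6% of all promoters, and GGGATTCC in *H2-K1*, against 1.22%. The interferon-type sequence GAAANNGAA, held by 8.78% of all promoters, had no exact match in the 9 windows. Only this order of its blocks was searched, so the result does not show that the windows lack interferon-type sequences. The printed *H2-K1* sequence holds tttcacttc, which on the other strand has the blocks GAA and GAAA in the reverse order. *Cd74* was not read. A match to so short a sequence is a description of the letters and shows no binding.

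Levels between genes were compared as CPM per kilobase of the canonical transcript. *B2m*, the invariant light chain of class I, was the most abundant member, with a mean of 40.2 CPM per kilobase in WT SH and 40.7 in KO SH, 51.3 in WT MI and 53.7 in KO MI. The heavy chain gene *H2-D1* followed with group means from 9.17 to 11.5, and *H2-K1* with 4.23 to 5.82. In WT SH the class II genes lay far lower, at 0.497 for *Cd74*, 0.416 for *H2-Ab1*, 0.273 for *H2-Eb1*, 0.262 for *H2-Aa* and 0.254 for *H2-DMa*. *Ciita* had 0.0833 and *H2-DMb1* 0.0384 CPM per kilobase. In KO MI *Cd74* reached 2.39, *H2-Ab1* 1.68 and *H2-Aa* 0.997, still below *H2-K1*. *H2-Eb1*, *H2-Aa* and *H2-DMa* do not differ in WT SH beyond the spread of their libraries.

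**Figure D1:**
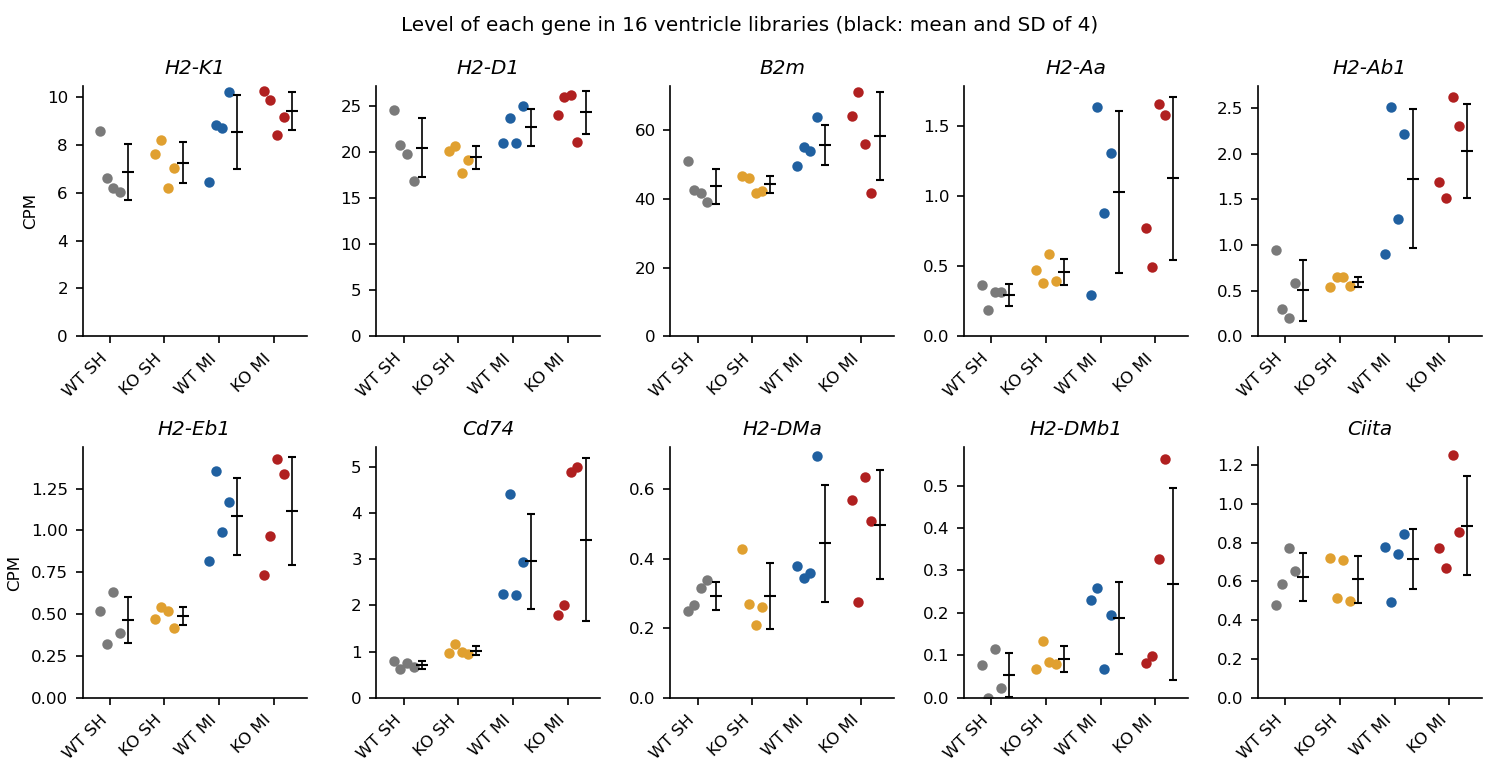
Each panel shows 1 gene in CPM on a linear axis that starts at 0, with 1 point for each of the 4 libraries of a group and the mean and SD in black. *B2m* lies between 39.1 and 51.1 CPM in the 8 sham libraries and between 41.7 and 71.3 CPM in the 8 MI libraries, which overlap. *Cd74* lies between 0.615 and 1.16 CPM in the sham libraries and between 1.79 and 5.001 CPM in the MI libraries, which do not.

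Post-MI, the class II chain genes and *Cd74* were higher than post-sham in both genotypes, and no class I gene was called. In WT mice 4 of 9 tested members were called, all higher, where 2.13% of 20159 tested genes were called higher. In KO mice the count was also 4 of 9, where 5.31% of the tested genes were called higher. Genes were called where edgeR's quasi-likelihood test gave an adjusted p (Benjamini-Hochberg) below 0.1 and the log2 fold change was 0.5 or more in size. Ranges of the 2 groups did not overlap for 3 members in WT mice, where 6.15% of the tested genes lay higher in this way, and for 5 in KO mice, where 7.66% did. The median log2 fold change of the 9 members was 0.60 in WT and 0.76 in KO mice, against -0.00429 and -0.0103 over all tested genes. In bulk tissue a change in the number of cells of a type and a change in RNA per cell cannot be told apart.

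*Cd74* (chr18:60936899-60945731, plus strand) encodes the invariant chain, which guides class II molecules to endosomes and blocks their groove on the way. It measured 0.807, 0.615, 0.743 and 0.677 CPM in WT SH replicates 1 to 4 and 2.25, 4.41, 2.23 and 2.93 CPM in WT MI replicates 1 to 4. In KO mice it measured 0.969, 1.16, 1.001 and 0.944 CPM post-sham, and 1.79, 2.01, 4.89 and 5.001 CPM in KO MI replicates 1, 2, 3 and 7. Every MI library was above every sham library, and KO MI fell into a lower and a higher pair. In WT mice the log2 fold change was 2.04 ± 0.33 (SE, n = 4 and 4), with an adjusted p of 0.00288 by edgeR's quasi-likelihood test. For KO mice it was 1.74 ± 0.32, with an edgeR adjusted p of 0.0027. The exact permutation test (two-sided) gave p = 0.0286 in both, the smallest that 4 libraries against 4 allow.

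*H2-Ab1* encodes the β chain of I-A, the class II molecule of this strain. Its WT SH libraries measured 0.942, 0.294, 0.200 and 0.580 CPM and its WT MI libraries 0.904, 2.52, 1.28 and 2.21 CPM. WT MI replicate 1 lay within the range of the sham libraries and the other 3 above it. In KO SH it measured 0.541, 0.648, 0.647 and 0.551 CPM, and in KO MI 1.69, 1.52, 2.62 and 2.30 CPM, with no overlap. *H2-Ab1* rose by a log2 fold change of 1.71 ± 0.37 in WT mice (edgeR adjusted p = 0.0194) and 1.76 ± 0.37 in KO mice (edgeR adjusted p = 0.00611), n = 4 and 4 in each.

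*H2-Aa* encodes the α chain that pairs with it. It measured 0.365, 0.187, 0.315 and 0.314 CPM in WT SH and 0.294, 1.63, 0.877 and 1.302 CPM in WT MI, where replicate 1 again lay at the sham level. KO SH libraries held 0.473, 0.378, 0.584 and 0.393 CPM and KO MI libraries 0.772, 0.492, 1.66 and 1.58 CPM, so that KO MI replicate 2 overlapped the sham range. These values rest on 7 to 86 counts in a library. *H2-Aa* rose by 1.77 ± 0.47 (log2) in WT (edgeR adjusted p = 0.0463) and 1.27 ± 0.44 in KO mice (edgeR adjusted p = 0.068). This was the least stable of the 4 calls: it was lost without WT SH replicate 2 or 3 or WT MI replicate 2 or 4, at log2 fold changes from 1.45 to 1.79. In KO mice it was lost without KO SH replicate 1, 2 or 4 or KO MI replicate 3 or 7, at log2 fold changes from 1.01 to 1.29.

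*H2-Eb1* encodes the β chain of I-E. It rose by a log2 fold change of 1.22 ± 0.26 in WT mice (edgeR adjusted p = 0.0169), from 0.519, 0.321, 0.629 and 0.387 CPM to 0.820, 1.36, 0.989 and 1.17 CPM. KO mice showed a rise of 1.18 ± 0.26 (edgeR adjusted p = 0.00777), from 0.473, 0.540, 0.521 and 0.420 CPM to 0.732, 0.964, 1.43 and 1.34 CPM. Neither pair of groups overlapped. The gene of its partner chain, *H2-Ea*, had 0 counts in all 16 libraries, and C57BL/6 mice are known to lack a functional copy. A transcript of *H2-Eb1* was thus counted in ventricles whose libraries held none of the α chain.

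*H2-DMa* encodes a chain of the DM protein that catalyses the exchange of the invariant chain remnant for peptide. It averaged 0.293 ± 0.041 CPM (SD, n = 4) in WT SH, 0.292 ± 0.0947 in KO SH, 0.444 ± 0.168 in WT MI and 0.497 ± 0.157 in KO MI. The log2 fold change post-MI was 0.60 ± 0.33 in WT (edgeR adjusted p = 0.385) and 0.76 ± 0.33 in KO mice (edgeR adjusted p = 0.146), and neither was called, although every WT MI library, from 0.344 CPM, lay above every WT SH library, up to 0.338 CPM. In KO mice it was called without KO SH replicate 1, at 1.01, or KO MI replicate 2, at 0.96. Its partner *H2-DMb1* had 9 counts in the 4 WT SH libraries together, 15 in KO SH, 35 in WT MI and 47 in KO MI. In WT SH replicate 2 it had 0 counts, below the floor at this depth, and 2 of the 4 KO MI libraries were within the range of the sham libraries. The exact permutation test (two-sided) gave p = 0.0857 in WT and p = 0.2 in KO mice, n = 4 and 4.

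*Ciita* (chr16:10297923-10347694, plus strand) encodes the coactivator on which class II transcription depends. It measured 0.480, 0.588, 0.772 and 0.653 CPM in WT SH and 0.778, 0.495, 0.742 and 0.847 CPM in WT MI, which overlap. The log2 fold change was 0.21 ± 0.25 in WT mice (95% interval -0.32 to 0.74, edgeR adjusted p = 0.737). In KO mice *Ciita* measured 0.721, 0.513, 0.709 and 0.498 CPM post-sham and 0.772, 0.669, 1.25 and 0.856 CPM post-MI. The log2 fold change was 0.53 ± 0.25 (95% interval 0.01 to 1.05, edgeR adjusted p = 0.177). Thus *Ciita*, at 19 to 65 counts a library, was not called in comparisons where the class II chain genes were.

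The class I genes differed post-MI by smaller amounts, and none was called. *H2-K1*, a classical heavy chain gene, measured 8.57, 6.63, 6.18 and 6.02 CPM in WT SH and 6.45, 8.82, 8.68 and 10.2 CPM in WT MI, which overlap. It measured 7.59, 8.21, 6.19 and 7.03 CPM in KO SH and 10.2, 9.88, 8.42 and 9.15 CPM in KO MI, which do not. The log2 fold change was 0.31 ± 0.13 in WT (edgeR adjusted p = 0.249) and 0.38 ± 0.13 in KO mice (edgeR adjusted p = 0.0758). *H2-D1*, the other heavy chain gene, differed by 0.15 ± 0.10 (edgeR adjusted p = 0.504) in WT mice, from a mean of 20.5 to 22.7 CPM. The difference in KO mice was 0.33 ± 0.10 (edgeR adjusted p = 0.0435), from 19.4 to 24.3 CPM.

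*B2m*, which every class I molecule shares, had a log2 fold change of 0.35 ± 0.12 in WT mice (edgeR adjusted p = 0.148). That in KO mice was 0.40 ± 0.12 (edgeR adjusted p = 0.0448), although KO MI replicate 7, at 41.7 CPM, lay within the sham range of 41.6 to 46.7 CPM and the other 3 libraries lay between 56.1 and 71.3 CPM. Without that library *B2m* was called, at 0.53 (edgeR adjusted p = 0.00114). In edgeR's test 0 of 3 class I genes were called in either genotype. DESeq2 called none of the 3 either, with an unadjusted edgeR p under 0.05 for 2 of them in WT and for 3 in KO mice. The adjusted p of all 3 was under 0.1 in KO mice, where 10.2% of the tested genes met that threshold with a higher level of any size, and their fold changes were below the minimum for a call.

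**Figure D2:**
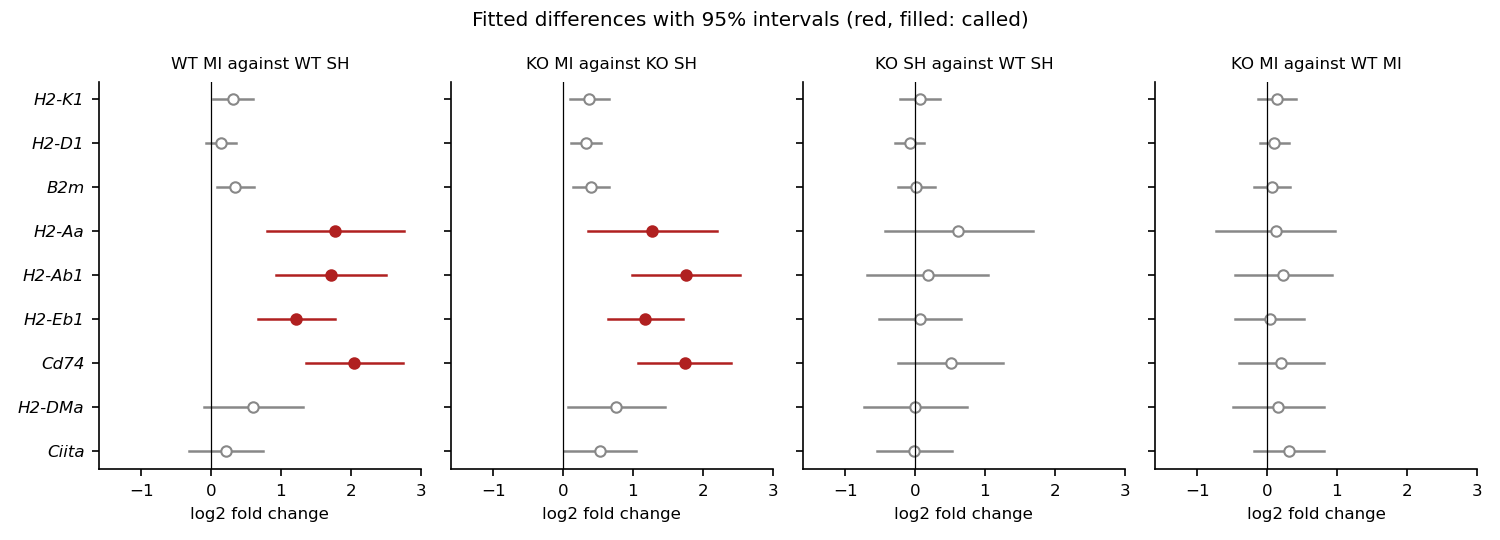
Each panel is 1 comparison, with the log2 fold change of the 9 tested genes as points, their 95% intervals as lines, and called genes filled in red. The class II chain genes and *Cd74* lie between 1.18 and 2.04 in both comparisons of MI with sham, the class I genes between 0.15 and 0.40, and no gene is called in the 2 comparisons of KO with WT.

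Summed over *H2-Aa*, *H2-Ab1*, *H2-Eb1* and *Cd74*, class II transcripts measured 1.97 ± 0.501 CPM (SD, n = 4) in WT SH and 2.56 ± 0.216 in KO SH, and 6.79 ± 2.51 in WT MI and 7.69 ± 3.14 in KO MI. The means post-MI were 3.44 times those post-sham in WT and 3.004 times in KO mice. Class I transcripts, summed over *H2-K1*, *H2-D1* and *B2m*, measured 71.0 ± 9.44 CPM in WT SH, 70.9 ± 4.61 in KO SH, 86.9 ± 9.18 in WT MI and 92.1 ± 15.0 in KO MI. These are 1.22 and 1.298 times the sham means.

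Class II made up 1.98% to 3.06% of both sums in WT SH and 3.19% to 4.03% in KO SH. It made up 5.24% to 10.2% in WT MI and 4.44% to 12.4% in KO MI, so that every MI library was above every sham library in this share. The class II sum was 4.98 CPM in both KO MI replicates 1 and 2, and 10.6 and 10.2 CPM in replicates 3 and 7. KO MI replicate 7, among the highest in class II, had a class I sum of 72.0 CPM, within the sham range. The classes did not move together from library to library in KO MI.

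**Figure D3:**
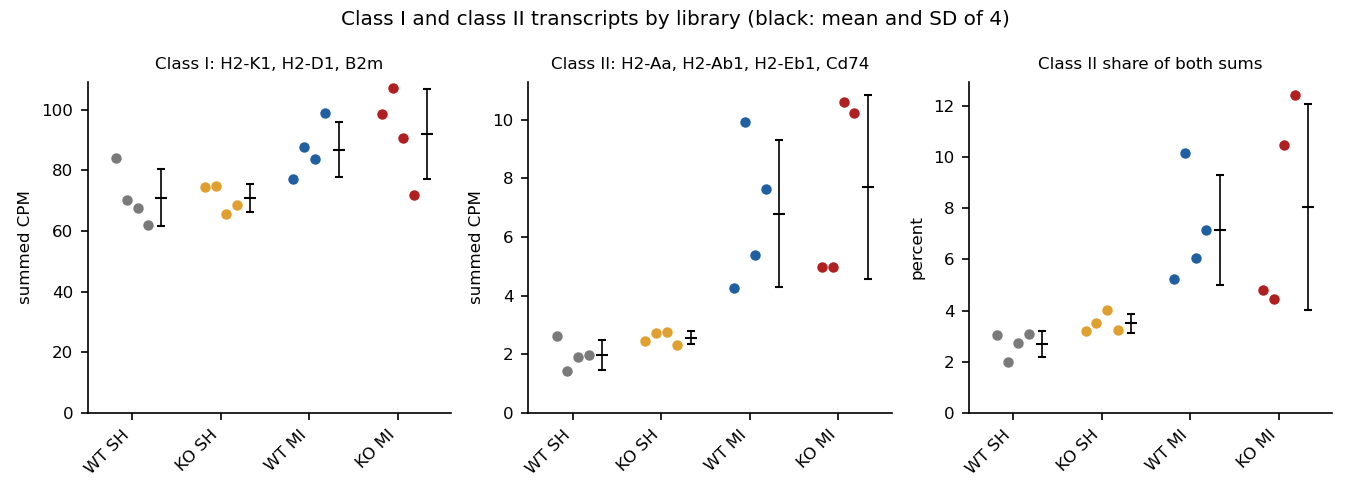
The first 2 panels show the summed CPM of the class I and class II genes in each library and the last shows class II as a percent of both sums, with linear axes from 0 and the mean and SD of 4 libraries in black. Class II sums lie between 1.42 and 2.75 CPM post-sham and between 4.27 and 10.6 CPM post-MI, while class I sums of the MI groups (72.0 to 107 CPM) overlap those of the sham groups (62.0 to 84.2 CPM).

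Sex of the libraries did not match between WT MI and WT SH. With sex as a term in the edgeR fit, all 4 class II calls were kept in both genotypes, with *Cd74* at a log2 fold change of 2.17 in WT mice. *H2-Aa* (1.83, edgeR adjusted p = 0.0954) and *H2-Ab1* (1.61, edgeR adjusted p = 0.0618) were then near the threshold of 0.1 in WT mice. The term holds 1 sex difference for all groups, so it cannot adjust for differences of opposite sign such as those given below. With the 10 libraries carrying Y-linked transcripts alone, which leaves 2 libraries in each group but WT SH, *Cd74* was called in WT mice at 1.65 (edgeR adjusted p = 0.00105). *H2-Aa* at 0.96, *H2-Ab1* at 1.06 and *H2-Eb1* at 0.96 were then not called, and all 4 were called in KO mice. Within the MI groups, *H2-Aa*, *H2-Ab1*, *H2-Eb1* and *Cd74* were lower in the Y-linked than in the *Xist* libraries of WT MI and higher in those of KO MI, an arrangement seen in 2.54% of the tested genes. The levels of these 4 genes went together over the libraries, so they are not 4 separate cases. Tested within each group, 0 of 9 members were called in WT MI, where 0.0595% of the tested genes were. In KO MI 1 was called, *Cd74*, where 0.104% were. The difference between the genotypes, tested after it had been seen and with 2 libraries in each arm, was called for *Cd74*, at 2.09 ± 0.29 on the log2 scale (edgeR adjusted p = 0.0236), where 0.00992% of the tested genes were called.

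Knockout and wild type ventricles were then compared. Post-sham, 0 of 9 members were called by edgeR, where 5.01% of the tested genes were, and 0 had an unadjusted p under 0.05. Post-MI the counts were again 0 and 0, where 1.73% of the tested genes were called, and DESeq2 called 0 members in both. For the class I genes the 95% intervals of the KO effect lay between -0.29 and 0.36 (log2) post-sham and between -0.19 and 0.42 post-MI. They were wider for the class II chain genes and *Cd74*, from -0.68 to 1.69 post-sham and from -0.73 to 0.97 post-MI, and those of *H2-Aa*, *H2-Ab1* and *Cd74* post-sham still held a rise of 1 on the log2 scale.

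*H2-Aa* and *Cd74* were higher in each KO SH library than in each WT SH library, a pattern that 8.35% of the tested genes showed. KO SH less WT SH was 0.62 ± 0.50 (log2) for *H2-Aa* (edgeR adjusted p = 0.497) and 0.51 ± 0.36 for *Cd74* (edgeR adjusted p = 0.423). With sex as a term they were 0.66 (edgeR adjusted p = 0.502) and 0.62 (edgeR adjusted p = 0.359). The exact permutation test gave p = 0.0286 for each, unadjusted. Post-MI, the log2 fold change of KO against WT was 0.12 ± 0.40 for *H2-Aa* and 0.20 ± 0.29 for *Cd74*.

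The interaction, the KO effect post-MI less that post-sham, was called for 0 of 9 members by edgeR and by DESeq2, with 0 unadjusted p under 0.05 and 0.0248% of the tested genes called. It was -0.30 ± 0.46 for *Cd74*, -0.50 ± 0.65 for *H2-Aa*, 0.05 ± 0.53 for *H2-Ab1* and -0.04 ± 0.37 for *H2-Eb1*. For *Cd74* the 95% interval ran from -1.27 to 0.66. In the libraries with Y-linked transcripts alone, chosen after seeing the data and 2 against 2, *Cd74* of KO MI was called above that of WT MI, by 1.15 on the log2 scale (edgeR adjusted p = 0.0209).

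The other genes of each pathway were taken from lists and counted in the same fit. Class I peptides are cut by the immunoproteasome, carried by TAP and loaded in a complex with tapasin. Of the 15 genes of this supply line, 0 were called in WT mice post-MI by edgeR or DESeq2, with 1 unadjusted edgeR p under 0.05, a median log2 fold change of -0.07, and 2.78% of the tested genes called. In KO mice 1 was called, *Psmb8*, an immunoproteasome subunit, at 0.58 ± 0.19 (edgeR adjusted p = 0.0581), where 7.42% of the tested genes were called, and the median was 0.11. *Psmb8* measured 1.35 to 2.10 CPM in KO SH and 1.93 to 2.80 CPM in KO MI, which overlap. No gene of this list was called between KO and WT by edgeR, with 1 unadjusted p under 0.05 post-sham and 3 post-MI. DESeq2 called *Psmb8* there post-MI, as did edgeR with sex as a term (0.59, adjusted p = 0.0771). The interaction was called for 0 of the 15 by edgeR, where 0.0248% of the tested genes were, with 2 unadjusted p under 0.05. DESeq2 called it for *Psmb8*. It was positive for all 15, with a median of 0.18 (log2), where 10136 of 20159 tested genes were positive.

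Nonclassical class I genes encode molecules with restricted roles, such as the presentation of lipids by CD1d and of vitamin metabolites by MR1. Of the 15, 12 were tested, and 0 were called in WT mice post-MI by edgeR. There, 2 had an unadjusted p under 0.05, and DESeq2 called *H2-Q7*. *H2-M2*, which had too few sham counts for the test, measured up to 0.0242 CPM in WT SH and 0.126 to 1.35 CPM in WT MI. In KO mice *H2-M2* measured up to 0.0451 CPM post-sham and 0.0203 to 1.52 CPM post-MI, which overlap. *Cd1d1* was higher in KO SH than in WT SH, at 3.63 to 5.05 against 1.71 to 3.35 CPM, by 0.80 ± 0.24 (edgeR adjusted p = 0.0455). It fell by 0.63 ± 0.23 in KO mice post-MI (edgeR adjusted p = 0.0888). Post-MI, *Mr1* was at 7.97 to 10.1 CPM in KO against 5.88 to 6.23 CPM in WT mice, higher by 0.56 ± 0.10 (edgeR adjusted p = 0.00514). Each was the 1 gene of the 12 called in its comparison of KO with WT, where 5.01% of all tested genes were called post-sham and 1.73% post-MI, and both calls were kept with sex as a term. The fall of *Cd1d1* post-MI was not called without KO MI replicate 3, at -0.57 (edgeR adjusted p = 0.194). The interaction was called for 0 of the 12 by edgeR, where 0.0248% of the tested genes were, with 2 unadjusted p under 0.05. DESeq2 called it for *Cd1d1*. Reads of *H2-K1*, *H2-D1* and the H2-Q genes can fit several of these near-identical genes, and the share of such reads is not given in the table.

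Other class II genes and endosomal proteases were led by *Ctss*, cathepsin S, which trims the invariant chain. It measured 4.74 to 7.94 CPM in WT SH and 11.8, 27.2, 24.4 and 22.3 CPM in WT MI. In KO SH it measured 5.39 to 5.90 CPM and in KO MI 9.74, 13.0, 22.1 and 18.3 CPM. *Ctss* rose by 1.76 ± 0.24 (log2) in WT (edgeR adjusted p = 0.000978) and 1.47 ± 0.25 in KO mice (edgeR adjusted p = 0.0019), with no overlap in either. *Marchf1*, whose product marks class II molecules for degradation, rose by 1.004 ± 0.27 in WT mice (edgeR adjusted p = 0.0476) and by 0.99 ± 0.26 in KO mice (edgeR adjusted p = 0.0207).

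*Ifi30*, a thiol reductase of endosomes, was the other gene called in KO mice, at 0.94 ± 0.34 (edgeR adjusted p = 0.0839). In all, 2 of 9 tested genes of this list were called higher in WT and 3 of 9 in KO mice post-MI, none lower, with medians of 0.14 and 0.40, where 2.13% and 5.31% of all tested genes were called higher. With sex as a term the counts were also 2 and 3. Without KO MI replicate 3 the KO count was 2, with *Ifi30* at 0.56 not called (edgeR adjusted p = 0.335) and *Marchf1* at 0.63. The ubiquitous protease gene *Ctsd* averaged between 84.3 and 90.3 CPM in the 4 groups. Of the listed genes *H2-Oa*, *H2-Eb2* and *H2-Ea* had too few counts for the test.

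Class II promoters bind RFX, NF-Y and CREB, and *Ciita* is induced by interferon gamma. Of the 16 tested genes of this axis, 0 were called by edgeR or DESeq2 in either comparison of MI with sham, with unadjusted edgeR p under 0.05 for 2 in WT and 4 in KO mice. The medians were -0.04 and 0.03, and *Ifng* had 0 counts in all 16 libraries. *Rfxank*, a subunit of RFX, measured 6.06 to 7.10 CPM in KO SH and 8.01, 8.27, 8.46 and 9.95 CPM in KO MI, with no overlap, and 6.33 to 6.99 CPM in WT MI. Its difference in KO mice post-MI was 0.40 ± 0.09 (log2, edgeR adjusted p = 0.0115), past the p threshold and below the minimum fold for a call, and KO MI against WT MI gave 0.39 ± 0.09 (edgeR adjusted p = 0.036). In WT mice post-MI it was 0.00021 ± 0.094 (edgeR adjusted p = 0.999). The interaction was called for 0 of the 16 genes by edgeR or DESeq2, where edgeR called 0.0248% of the tested genes. The lowest edgeR adjusted p of the interaction in this list was 0.217, with 3 unadjusted p under 0.05. Of 5 costimulation genes tested, such as *Cd86*, 0 were called in the comparisons of MI with sham by edgeR or DESeq2, with 0 unadjusted p under 0.05.

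**Figure D4:**
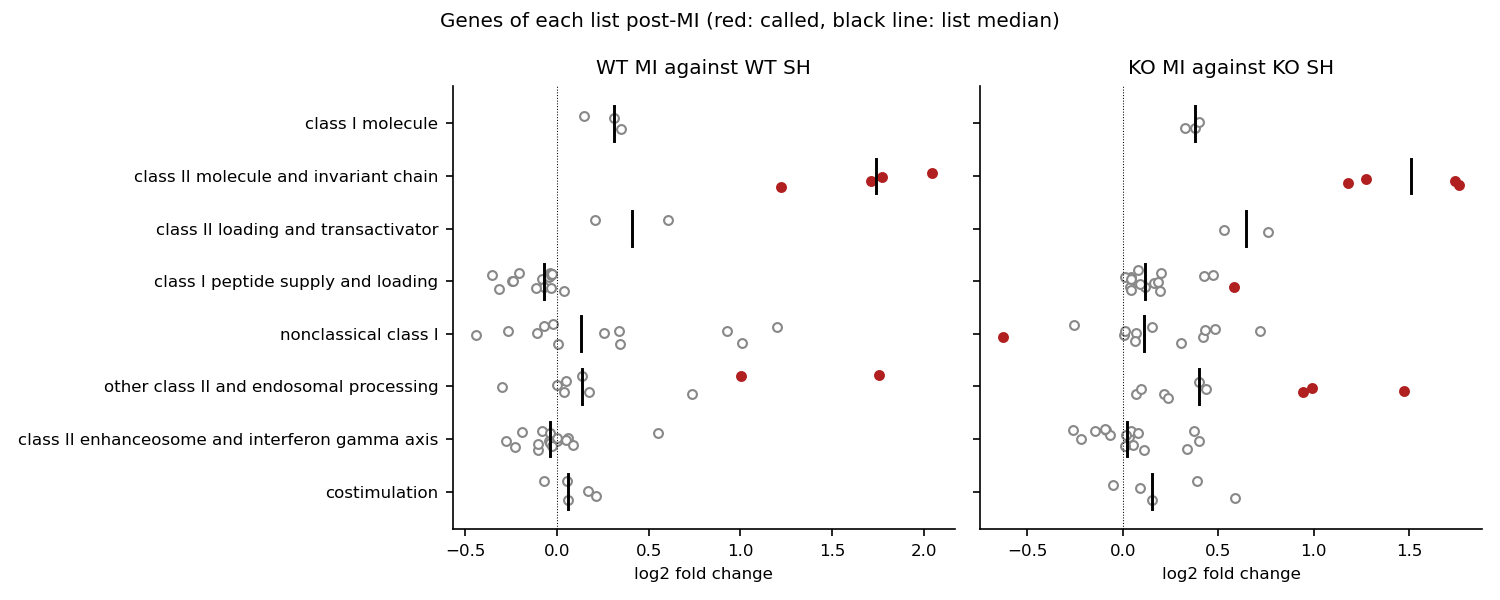
Each point is the log2 fold change post-MI of a tested gene of a list, in WT mice on the left and KO mice on the right, red where called, with the list's median as a black line. The class II chain genes and *Cd74* lie apart from their promoter factors and from the class I supply line, whose medians lie between -0.07 and 0.11.

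Cell type markers that moved with the class II genes are given beside them, and their part in the result was not tested. Of 10 macrophage genes, 1 was called higher in WT mice post-MI and 8 in KO mice, and post-sham 3 were called lower in KO than in WT mice. Over all tested genes 2.13% and 5.31% were called higher post-MI, and 5.01% were called post-sham. With sex as a term these 3 counts were also 1, 8 and 3. Between KO and WT mice post-MI, edgeR called 0 of the 10, where 1.73% of the tested genes were called. The macrophage median there was 0.05 (log2), 1 gene had an unadjusted edgeR p under 0.05, and DESeq2 called 1. The interaction was called for 0 of the 10 by both tools, where edgeR called 0.0248% of the tested genes. It had an unadjusted edgeR p under 0.05 for 4. The summed level of the macrophage genes ranged from 67.8 to 79.5 CPM in WT SH, 62.8 to 69.96 in KO SH, 87.4 to 115 in WT MI and 76.1 to 144 in KO MI. KO MI replicate 3 held 9.90 CPM of *Adgre1* against 3.41 to 3.76 CPM in the other KO MI libraries, and 58.1 CPM of *Mrc1* against 29.2 to 36.5 CPM. Without it, 5 of the 10 macrophage genes were called in KO mice post-MI. *Lyz2*, the lysozyme gene of myeloid cells, measured 7.74 to 9.30 CPM in WT SH and 12.9, 29.0, 27.1 and 28.0 CPM in WT MI, a log2 fold change of 1.51 ± 0.22 (edgeR adjusted p = 0.00152). In KO mice *Lyz2* rose from 7.72 to 8.74 CPM post-sham to 14.4, 26.2, 28.6 and 29.7 CPM post-MI, by 1.57 ± 0.22 (edgeR adjusted p = 0.000753). WT MI replicate 1 and KO MI replicate 1 were the lowest MI libraries in *Lyz2* and in *Ctss*, and WT MI replicate 1 and KO MI replicates 1 and 2 were among the lowest in class II.

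*Fcgr1*, an Fc receptor of macrophages, was lower post-sham in KO than in WT mice (log2 fold change -2.45 ± 0.46, edgeR adjusted p = 0.00374) and *C1qb*, a complement gene of tissue macrophages, likewise (log2 fold change -1.06 ± 0.25, edgeR adjusted p = 0.0145). *Fcgr1* measured 0, 0.135, 0.0626 and 0.105 CPM in KO SH, near the floor, against 0.363 to 0.481 CPM in WT SH, so the size of its difference is uncertain. *H2-Aa* and *Cd74* lay the other way in the same comparison, above WT SH in each KO SH library, and the neutrophil genes *S100a8* (1.44 ± 0.50, edgeR adjusted p = 0.0862) and *S100a9* (1.02 ± 0.36, edgeR adjusted p = 0.094) were called higher. With sex as a term *Fcgr1* (-2.53) and *C1qb* (-0.98) were still called, and *S100a8* (1.22, edgeR adjusted p = 0.161) and *S100a9* (0.98, edgeR adjusted p = 0.142) were not. *Fcgr1* was higher by 1.62 in KO mice post-MI (edgeR adjusted p = 0.0358), at 0.134 to 0.315 CPM in KO MI, a range that overlaps KO SH.

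Of 8 dendritic cell genes, 5 were tested, and 1 was called, *Batf3* in KO mice post-MI, at 0.99 ± 0.32 (edgeR adjusted p = 0.0519), and not without KO MI replicate 3 (edgeR adjusted p = 0.1003). In KO mice post-MI 5.31% of all tested genes were called higher. *Itgax*, which encodes CD11c and had too few sham counts for the test, measured 0.0242 to 0.0577 CPM in WT SH and 0.525 to 1.98 CPM in WT MI, and 0.0270 to 0.113 CPM in KO SH and 0.427 to 2.17 CPM in KO MI. The summed level of the 8 genes ranged from 24.5 to 28.6 CPM in WT SH, 27.8 to 30.7 in KO SH, 28.1 to 31.6 in WT MI and 26.2 to 28.5 in KO MI, and *Cd209a* did not exceed 0.0787 CPM in any library. Most of this sum was *Zbtb46*, at 14.1 to 18.7 CPM, and *Clec9a*, at 8.65 to 12.7 CPM, neither of which was called, so that it says little of the scarce genes. *Flt3* measured up to 0.0572 CPM in WT SH and 0.0420 to 0.215 CPM in WT MI, near the floor. Of 5 B cell genes, 0 were called by edgeR or DESeq2 in WT mice post-MI, with 1 unadjusted edgeR p under 0.05, and 3 were called higher in KO mice, such as *Ms4a1* at 1.65 ± 0.40 (edgeR adjusted p = 0.0148). Over all tested genes edgeR called 2.13% higher in WT and 5.31% in KO mice post-MI. Between KO and WT mice post-MI, 0 of the 5 were called by edgeR or DESeq2, where edgeR called 1.73% of the tested genes. B cell genes summed to 1.76 to 2.90 CPM in WT SH, 1.28 to 2.02 in KO SH, 2.88 to 4.39 in WT MI and 2.26 to 9.42 in KO MI. KO MI replicate 3, high in class II, had 4.05 CPM of *Ms4a1* against 0.833 to 1.44 CPM in the other KO MI libraries, and without it 1 B cell gene was called, *Ms4a1* at 0.90. Of 5 neutrophil genes 2 were tested, *S100a8* and *S100a9*. Both were called higher post-MI, by 3.99 and 3.06 in WT and 1.45 and 1.49 in KO mice (edgeR adjusted p from 9.41e-05 to 0.0213). There, 2.13% and 5.31% of the tested genes were called higher. Their interaction, from -2.54 to -1.56, was not called by edgeR (adjusted p from 0.146 to 0.192), where 0.0248% of the tested genes were. Both had an unadjusted edgeR p under 0.05 for it, and DESeq2 called *S100a9*. Between KO and WT mice post-MI edgeR called neither, with 1 unadjusted p under 0.05, and DESeq2 called *S100a8*.

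The thymus lies over the neonatal heart and is rich in class II. Its epithelial genes *Foxn1* and *Aire* did not exceed 0.0210 and 0.0802 CPM in any library, at or near the floor, and *Psmb11* did not exceed 0.135 CPM, while *Ccl25*, a chemokine of thymic epithelium and gut, lay between 9.11 and 12.9 CPM. Thymocyte genes summed to between 0.114 and 2.44 CPM in WT SH, highest in replicate 4, 0.131 and 0.355 in KO SH, 0.195 and 0.405 in WT MI and 0.267 and 0.790 in KO MI. Of T cell genes, 0 of 4 tested were called by edgeR or DESeq2 in the comparisons of MI with sham, with 0 unadjusted p under 0.05. Of 5 fibroblast genes 1 was called post-MI, *Col1a1* in KO mice at 0.65 (edgeR adjusted p = 0.00129), where 5.31% of the tested genes were called higher.

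Markers of endothelium and cardiomyocytes differed post-MI by less than the minimum fold for a call. Of 6 endothelial genes 0 were called in WT or KO mice post-MI by edgeR or DESeq2, but 6 in WT and 4 in KO mice had an unadjusted edgeR p under 0.05, with medians of -0.17 and -0.14. Their sum ranged from 881 to 903 CPM in WT SH, 808 to 850 in KO SH, 731 to 822 in WT MI and 680 to 824 in KO MI. Of 6 cardiomyocyte genes 0 were called by either tool, with an unadjusted edgeR p under 0.05 for 4 in WT and 3 in KO mice and medians of -0.34 and -0.13. *Ryr2*, the calcium release channel, was lower in WT mice post-MI by a log2 fold change of -0.34 ± 0.08 (edgeR adjusted p = 0.0219) and in KO mice by -0.25 ± 0.08 (edgeR adjusted p = 0.0404), both below the minimum fold.

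**Figure D5:**
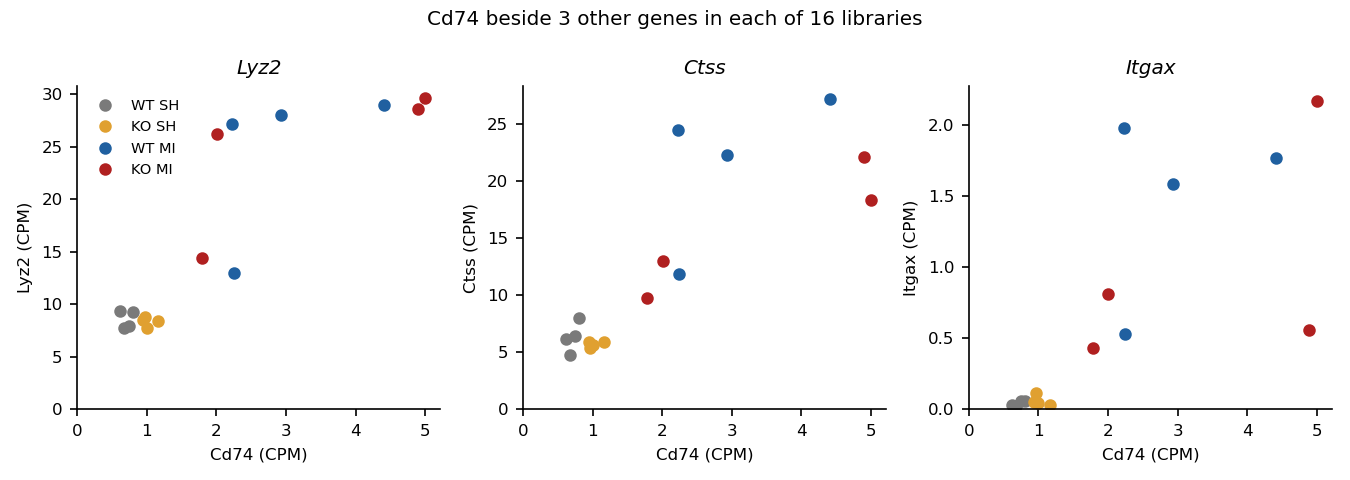
Each point is a library, with *Cd74* in CPM on the horizontal axis and *Lyz2*, *Ctss* or *Itgax* in CPM on the vertical axis, coloured by group. All 8 sham libraries lie at the lower left of each panel, with *Cd74* up to 1.16 CPM and *Lyz2* up to 9.30 CPM. MI libraries of similar *Cd74* differ in *Lyz2*, from 12.9 to 27.1 CPM in WT MI replicates 1 and 3.

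The genes most like *Cd74* over the 16 libraries, by Pearson's r of log2 CPM among 14111 genes outside the list with a mean of at least 1 CPM, were *Myo1f* (r = 0.952), *Ptprc* (r = 0.947), *C4b* (r = 0.947), *C1ra* (r = 0.946) and *Cd300lf* (r = 0.939). *Ptprc* encodes CD45, the surface phosphatase of leukocytes, *Myo1f* a myosin of immune cells, and *C4b* and *C1ra* components of complement. Those most like *H2-K1* were *H2-Q7* (r = 0.848), *Rbbp7* (r = 0.840), *Aldh1a2* (r = 0.794), *Bex4* (r = 0.787) and *Cenph* (r = 0.784). *H2-Q7* is a class I gene whose sequence is close to that of *H2-K1*. Among the members, *Cd74* went with *H2-Eb1* (r = 0.957), *H2-Ab1* (r = 0.899) and *H2-Aa* (r = 0.884), and *B2m* with *H2-D1* (r = 0.858) and *H2-K1* (r = 0.808). *Cd74* went less with the class I genes *H2-K1* (r = 0.627), *H2-D1* (r = 0.590) and *B2m* (r = 0.513), and with *Ciita* (r = 0.503). The classes were not fully apart, since *H2-Ab1* went with *H2-K1* (r = 0.785), *H2-D1* (r = 0.677) and *B2m* (r = 0.663). These values describe 16 libraries that share 4 groups, and the libraries are not independent points of 1 condition.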

How the data were processed

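Bulk RNA was sequenced from 16 neonatal ventricles. Per the study's methods, the authors trimmed reads with Skewer, aligned them to GRCm39 with STAR and estimated expression with RSEM. The submitters' processing notes name other tools, cutadapt (version 3.4), HISAT2 (version 2.2.1) and RSEM (version 1.1.17), so which were used for the table is not settled. The deposited values are RSEM expected counts per gene, not normalized and whole, and the annotation release is not given in the sources used here.

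Identifiers were named with GENCODE release M39, which matched 47772 of 51912. Unmatched identifiers held 0.57% to 0.786% of counts. The 20159 genes whose counts summed to 10 or more in every group were fitted with edgeR (version 4.0.16, R version 4.3.3), using TMM normalization, a coefficient per group and quasi-likelihood F-tests (two-sided) over 16 libraries. A call needed a Benjamini-Hochberg adjusted p below 0.1 and a log2 fold change of 0.5 or more in size, the study's thresholds. CPM uses the TMM-scaled library size. Single genes had an exact permutation test of log2(CPM + 0.05) over 70 splits. The test was checked on simulated counts, with changes set only in genes of a higher mean count than the class II genes had in WT SH. That check does not cover genes with counts as low as theirs. The precision of low genes is set by their counts, which are printed, and the floor covers counting error only.

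Alternatives were DESeq2 (version 1.42.0), its size factors in edgeR, other filters, a robust fit, only the groups compared, the replicate number as a block, other thresholds and each library left out. Fits with sex of the libraries, and of the other lists without KO MI replicate 3, were added after seeing the data. The members and lists were chosen with earlier results of these data known. Named genes are all members, at most the 2 largest rises and 2 largest falls among called genes of each other list and comparison, and the 5 genes most like *Cd74* and *H2-K1*. *Itgax*, *Ctsd*, *Cd86* and *Cd209a* and the thymic genes were named after their values were seen, as were *Ccl25*, *Rfxank*, *Adgre1*, *Mrc1*, *Zbtb46*, *Clec9a*, *Flt3* and *Ryr2*. So was *H2-M2*. The libraries are labelled as separate samples, and the p-values measure the spread between them.

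Promoters were read from GRCm39 at the start of each gene's canonical transcript. No protein sequence was used here.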

Additional observations from a re-analysis of the deposited data

Results flagged for a closer look

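Within the MI groups, class II levels split by sex of the library, in opposite directions in the 2 genotypes. In WT MI the libraries with Y-linked transcripts, replicates 1 and 3, had class II sums of 4.27 and 5.37 CPM, below the *Xist* libraries, replicates 2 and 4, at 9.92 and 7.62 CPM. In KO MI the libraries with Y-linked transcripts, replicates 3 and 7, had 10.6 and 10.2 CPM, above the *Xist* libraries, replicates 1 and 2, at 4.98 CPM each. Of the 10 members 4 had this pattern, *H2-Aa*, *H2-Ab1*, *H2-Eb1* and *Cd74*, against 2.54% of the tested genes. The levels of these 4 went together over the libraries (r from 0.851 to 0.957), so they are not 4 separate cases.

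The difference between the genotypes was tested in edgeR with a coefficient for each group and sex, after the pattern had been seen in the same libraries. The KO MI difference less the WT MI difference was 2.09 ± 0.29 (log2, SE) for *Cd74*, with an edgeR adjusted p of 0.0236, and 2 of 20159 genes (0.00992%) were called. It was 2.69 ± 0.58 for *H2-Aa* (adjusted p = 0.424 by edgeR), 1.74 ± 0.56 for *H2-Ab1* (adjusted p = 0.826 by edgeR) and 1.19 ± 0.42 for *H2-Eb1* (adjusted p = 0.881 by edgeR), none of which was called. In KO SH, libraries with Y-linked transcripts less those with *Xist* differed by -0.12 ± 0.24 for *Cd74*, not called. Within WT MI the same difference was -0.71 ± 0.20 for *Cd74*, and 0 of 9 members were called, where 0.0595% of the tested genes were. Within KO MI it was 1.38 ± 0.20 for *Cd74* (edgeR adjusted p = 0.0139), the 1 of 9 members called, where 0.104% of the tested genes were. Each arm holds 2 libraries, and whether sex itself caused the split was not tested.

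*H2-DMa* was at 0.695 CPM in WT MI replicate 4, far from the other 3 libraries of the group at 0.344 to 0.378 CPM. This was the one such library among 40 combinations of a member and a group, and chance gives about 1 in 20.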

How the results depend on the processing

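No called member changed direction under any alternative run, and of 863 log2 fold changes of members recomputed, 60 changed sign with no call in either fit. With at least 10 counts in every library, 2 members were called in WT and 2 in KO mice post-MI, since *H2-Aa* and *H2-Ab1* were filtered out. With no minimum fold change, 7 were called in KO mice, the added ones being *H2-K1*, *H2-D1* and *B2m*. In libraries with Y-linked transcripts alone, chosen after seeing the data, 1 was called in WT mice post-MI and 1 in KO MI against WT MI, *Cd74* in both, with fewer libraries in the fit. Leaving out 1 library gave 3 to 4 members called in WT and 3 to 5 in KO mice post-MI, and 0 to 0 between genotypes and for the interaction. *H2-DMa* was gained in KO mice without KO SH replicate 1 or KO MI replicate 2, and *B2m*, at 0.53, without KO MI replicate 7. The replicate numbers do not pair the libraries: over 21 pairs with the same number the correlation of deviations from the group mean ranged from -0.0623 to 0.112, with 1 over 0.1. With the replicate block the counts were 4 in WT and 4 in KO mice, with *H2-Aa* lost and *B2m* gained in the latter. KO MI replicate 7 shares its number with no other library. Over all genes the interaction called 5 in edgeR and 289 in DESeq2, with 0 members in both. Counts of 7 to 86 a library for *H2-Aa* and under 25 for *H2-DMb1* limit those genes.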

Other observations

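The letters TGATGATG, chosen after the promoter sequences had been seen, matched in 3 of the 9 members read, against 1.25% of all promoters. They lay from 58 to 51 bases before the start of *H2-Eb1*, from 67 to 60 bases before that of *H2-DMa*, and from 30 to 37 bases on from that of *H2-DMb1*. The CPM of *B2m* over the summed CPM of *H2-K1* and *H2-D1* lay between 1.54 and 1.74 in the 8 sham libraries, between 1.70 and 1.83 in WT MI, and between 1.38 and 1.99 in KO MI, where replicate 7 was lowest and replicate 2 highest. *C4b*, a complement gene in the MHC, rose by 3.79 on the log2 scale in WT and by 4.48 in KO mice post-MI (edgeR adjusted p = 0.00205 and 0.000519). It is close in sequence to *C4a*, so that reads may be split between them.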
